A study of Mus musculus with 36 samples.

Results

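The difference between LGP2 KO and WT dendritic cells in their response to PAMP RNA was examined 1 h after transfection. It is the KO response (KO PAMP minus KO mock) minus the WT response (WT PAMP minus WT mock), and it used the 12 libraries of 1 h out of 36 in the series. Of 24127 genes in the deposited table, the 11853 with a mean normalized count of 10 or more were tested. A normalized count is the number of reads of a gene divided by a size factor of its library.

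The cells were CD11c-purified dendritic cells grown from mouse bone marrow with GM-CSF. The 4 groups of 1 h held 3 libraries each. KO PAMP cells came from Dhx58-/- (LGP2-/-) mice and received 20 ng of PAMP RNA by transfection, namely the hepatitis C virus poly-U/UC sequence recognised by RIG-I. KO mock cells had the same genotype and were collected at the same time without it. WT PAMP and WT mock cells came from C57BL/6J mice and were treated in the same ways, and the strain is given as C57BL/6 for all samples. The labels call the controls both mock and untreated, so it is not known whether a response includes what the transfection itself contributed. The deletion was carried by every cell of the mouse, and the sources used here do not give age, sex or the number of mice, so p-values measure the spread between libraries. In bulk libraries, fewer cells of a type and less RNA per cell cannot be told apart.

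RIG-I is a cytosolic helicase that binds viral RNA and signals through the adaptor MAVS. The kinases downstream activate IRF3, which drives interferon beta and some interferon-stimulated genes directly, and NF-kB, which drives inflammatory cytokines together with its own inhibitors. LGP2, encoded by Dhx58, is a relative of RIG-I that binds RNA but lacks the signalling domains.

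The libraries of 1 h held 7399214 to 8954450 reads in genes, and 14712 to 15258 genes were detected in each. Pearson correlations between libraries of a group were 0.991 to 0.994 on the log2 scale, while chi-square values per degree of freedom ran from 1.32 to 5.90, highest between replicates 1 and 3 of WT mock cells. Itgax, which encodes CD11c, stood at 3058 to 3441 normalized counts in all 12 libraries. Of 11 T and NK cell markers, 2 (Cd3g and Gzmb) were at 0 in all of them. The sum of the 11 was 34.5 to 50.4 in KO PAMP and 62.2 to 72.7 in WT PAMP cells, and 26.7 to 41.8 in KO mock and 52.9 to 72.4 in WT mock cells, with 1 of 3 tested, Thy1, lower in KO cells under both conditions. Of 8 erythroid markers 1 (Hbb-bs) was at 0, and their sums were 0.851 to 15.8 over the 12 libraries. The summed level of 12 dendritic cell markers was 29809 to 30376 in KO PAMP and 40924 to 45110 in WT PAMP cells, and 28318 to 31418 in KO mock and 43225 to 44871 in WT mock cells. Of the 10 markers tested, 8 were lower in KO cells under both conditions. The difference in response passed for 0 of them in limma, edgeR or DESeq2, and 0 reached an unadjusted p under 0.05. In limma 0.118% of all genes passed. Over all genes tested, 7.28% were lower and 4.34% higher in KO mock cells, and 5.30% and 3.85% in KO PAMP cells. Of 13 monocyte and macrophage markers, 4 were higher and 1 was lower in KO cells under both conditions, and their sums overlapped between genotypes. The part of these baseline differences in the results was not tested.

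Dhx58 (chromosome 11, 100694884 to 100704271, minus strand, GRCm38) was read in every library. Its normalized counts were 153, 178 and 137 in KO PAMP against 98.0, 105 and 91.9 in WT PAMP cells. They were 119, 214 and 108 in KO mock against 94.1, 103 and 83.6 in WT mock cells. KO libraries were therefore higher with no overlap under both conditions, by 0.66 log2 units with PAMP RNA (SE 0.14, adjusted p = 0.000679) and by 0.59 in mock cells (SE 0.14, adjusted p = 0.00219). This higher level in cells labelled KO was left unexplained, since gene-level reads cannot show whether the labelled deletion is present. At the later times the response was smaller in KO cells. At 3 h Dhx58 averaged 595 ± 24.7 in KO PAMP and 1477 ± 61.7 in WT PAMP cells, and 451 ± 71.7 in KO mock and 132 ± 14.8 in WT mock cells (SD, n = 3 each). At 6 h it averaged 935 ± 111 in KO PAMP and 3006 ± 62.9 in WT PAMP cells, and 722 ± 87.3 in KO mock and 307 ± 47.6 in WT mock cells. The Dhx58 response in KO minus that in WT cells was -3.07 at 3 h (SE 0.19, adjusted p = 5.94e-16), and by 6 h it was -2.93 (SE 0.19, adjusted p = 3.82e-15), with lower KO levels after PAMP RNA and higher ones in mock cells. Reads were counted per gene, so exons present or deleted are not resolved, and the antisense gene Dhx58os overlaps it in libraries that do not mark the strand. At 1 h the Dhx58 responses were 0.14 in KO and 0.07 in WT cells, and neither passed. KO and WT below stand for the libraries labelled so.

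At 1 h the response was larger in KO cells for 14 genes and smaller for 0 of the 11853 tested (0.118% called, limma, Benjamini-Hochberg adjusted p under 0.05). They were the chemokine genes Cxcl10 and Cxcl2, the cytokine gene Tnf, the immediate-early genes Egr1, Ppp1r15a and Zfp36, the NF-kB regulator genes Nfkbia, Nfkbiz and Tnfaip3, the interferon-stimulated genes Rsad2, Ifit2 and Gbp5, Irg1 (now Acod1) and Sdc4. The differences ran from 0.42 log2 units for Zfp36 to 1.30 for Cxcl10, with a median of 0.81 against 0.01 over all genes tested. All 14 genes rose with PAMP RNA in both genotypes. edgeR on the reads recovered from the table called 9 genes higher and 0 lower, and DESeq2 called 15 higher and 0 lower. With no filter on low values limma called 10 higher and 1 lower (Gm5640, -0.87). At an unadjusted p under 0.05 limma had 313 genes with a larger and 237 with a smaller response in KO cells.

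**Figure D1:**
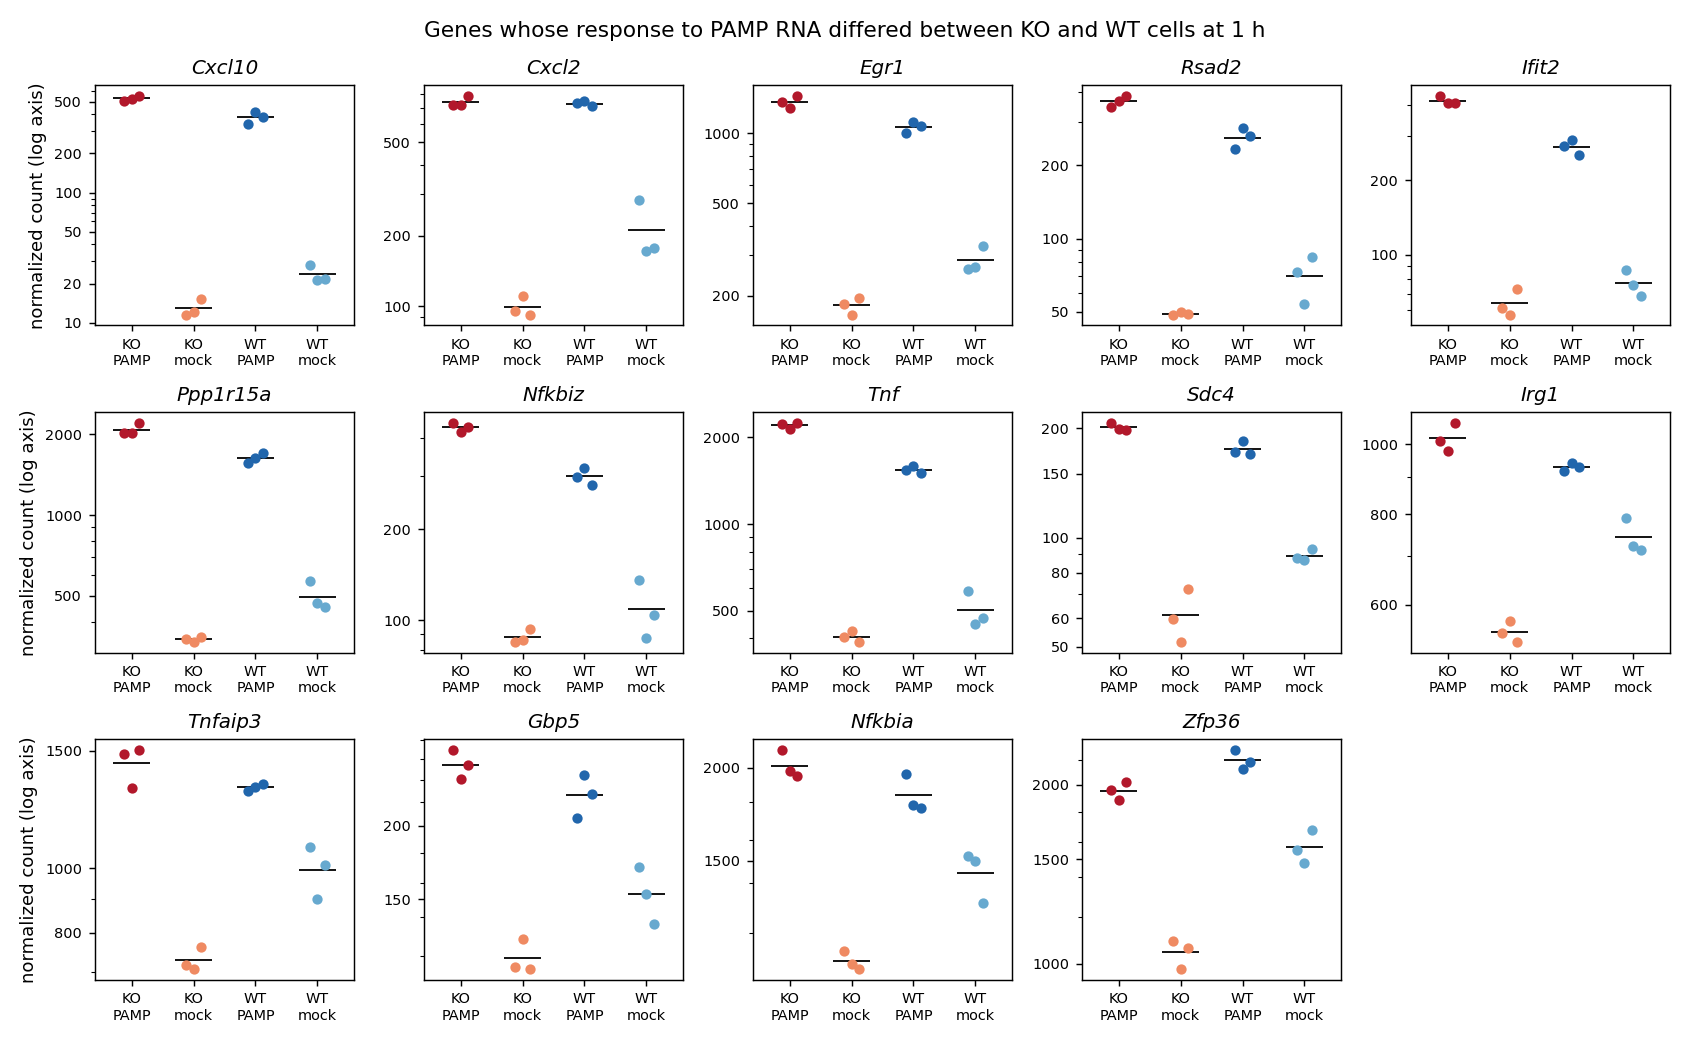
Normalized counts (log axis) of the 14 genes in the 12 libraries of 1 h, one point per library, with the mean of each group as a line. In KO mock cells 12 of the 14 genes lay below WT mock cells with no overlap, and in KO PAMP cells 9 lay above WT PAMP cells with no overlap.

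The difference had components in both conditions. In mock cells 12 of the 14 genes were lower in KO than in WT cells, with a median of -0.46 over the 14 (11.6% of all genes were called in that comparison, 4.34% higher and 7.28% lower in KO cells). In PAMP cells 7 were higher and 1, Zfp36, was lower in KO cells, with a median of 0.27 (9.15% called, 3.85% higher and 5.30% lower). These are parts of the difference that picked the genes, so their counts describe it and are not independent evidence. In mock cells edgeR called 10 of the 14 lower and DESeq2 11. The PAMP components of Cxcl10, Egr1 and Rsad2 missed the threshold without WT PAMP replicate 1 or KO PAMP replicate 3. Over all settings they were 0.41 or more, 0.31 or more and 0.42 or more. With no filter those of Cxcl10 and Rsad2 missed it too. The mock component of Rsad2 missed it without WT mock replicate 1 or 3, with no filter, and in edgeR and DESeq2 (-0.34 or lower over all settings). That of Cxcl10 missed it in edgeR (adjusted p = 0.137). The libraries did not overlap in 12 genes with KO mock below WT mock cells (12.9% of all genes) and in 9 genes with KO PAMP above WT PAMP cells (13.7%). Measured as a gain in normalized counts, PAMP minus mock, the change was larger in KO cells for all 14, by a ratio of 1.24 for Cxcl2 to 2.52 for Irg1.

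**Figure D2:**
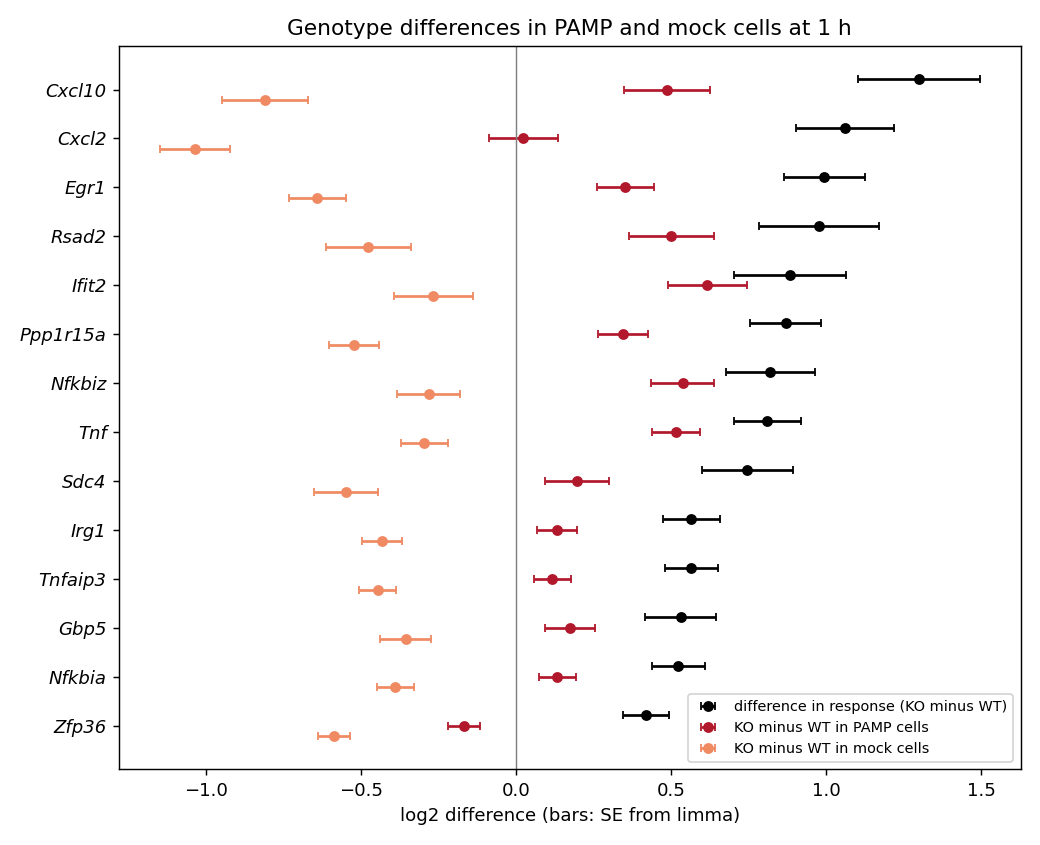
Log2 differences for the 14 genes, with bars for the SE from limma: the difference in response, KO minus WT in PAMP cells, and KO minus WT in mock cells. All 14 differences in mock cells lie below 0, and those in PAMP cells run from -0.17 for Zfp36 to 0.62 for Ifit2.

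Promoter sequences are shown for 5 of the genes because they hold the motifs of the 2 factor families named above, NF-kB (GGNNTTTCC) and the IRFs (core GAAANNGAA). RefSeq promoters on GRCm38.p6 were found for 12 of the 14 genes, not for Egr1 and Nfkbiz. The 250 bases before the RefSeq start were searched on both strands, and matches of these motifs are in capitals. GGNNTTTCC was in 7 of the 12 (Cxcl2, Cxcl10, Tnfaip3, Nfkbia, Irg1, Rsad2 and Gbp5) and in 4.93% of 32851 mouse promoters of that length. GAAANNGAA was in 5 of the 12 (Ppp1r15a, Cxcl10, Nfkbia, Rsad2 and Gbp5) and in 7.13% of all. The AP-1 motif TGANTCA was in 3 (Cxcl10, Tnfaip3 and Rsad2) against 6.75%, and the CRE motif TGACGTCA in 1 (Ppp1r15a) against 1.55%. None of these matches overlapped another, and a match describes the letters only. A gene counted if any of its promoters matched, while the shares are over single promoters. Promoters of other genes that rose with PAMP RNA were not counted apart, so these counts do not set the 14 against them. Cxcl2 held a pair of GGNNTTTCC matches that began 96 and 77 bases before the start, while the other promoters shown held both motifs.
Cxcl2 (chr5:90903649-90903898, plus strand): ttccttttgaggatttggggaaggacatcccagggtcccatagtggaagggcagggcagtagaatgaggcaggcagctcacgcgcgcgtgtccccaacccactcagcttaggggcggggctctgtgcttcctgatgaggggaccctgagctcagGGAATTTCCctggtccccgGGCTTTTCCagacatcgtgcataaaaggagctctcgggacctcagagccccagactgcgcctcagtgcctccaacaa
Nfkbia (chr12:55492648-55492897, minus strand): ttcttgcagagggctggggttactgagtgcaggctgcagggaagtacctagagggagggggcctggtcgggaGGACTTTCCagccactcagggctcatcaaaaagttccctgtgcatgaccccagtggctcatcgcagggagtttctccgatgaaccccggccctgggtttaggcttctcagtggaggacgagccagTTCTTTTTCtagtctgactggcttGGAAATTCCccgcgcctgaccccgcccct
Gbp5 (chr3:142496684-142496933, plus strand): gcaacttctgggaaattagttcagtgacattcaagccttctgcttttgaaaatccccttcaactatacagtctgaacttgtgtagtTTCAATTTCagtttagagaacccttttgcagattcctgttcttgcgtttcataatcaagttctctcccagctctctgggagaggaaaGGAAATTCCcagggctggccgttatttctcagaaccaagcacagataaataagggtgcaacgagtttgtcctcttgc
Cxcl10 (chr5:92348890-92349139, minus strand): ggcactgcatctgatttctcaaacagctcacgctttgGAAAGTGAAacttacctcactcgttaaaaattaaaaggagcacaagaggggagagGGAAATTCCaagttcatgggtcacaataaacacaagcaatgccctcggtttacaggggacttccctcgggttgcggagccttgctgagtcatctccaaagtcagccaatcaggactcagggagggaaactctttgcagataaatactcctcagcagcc
Rsad2 (chr12:26456453-26456702, minus strand): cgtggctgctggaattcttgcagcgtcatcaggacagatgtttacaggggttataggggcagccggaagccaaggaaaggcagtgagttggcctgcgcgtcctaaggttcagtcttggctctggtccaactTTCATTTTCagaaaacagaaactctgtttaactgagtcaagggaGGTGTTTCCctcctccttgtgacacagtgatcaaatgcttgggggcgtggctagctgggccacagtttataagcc

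Chemokine and cytokine genes held the largest difference. Cxcl10 (chromosome 5, 92346638 to 92348889), which encodes a chemokine for activated T cells, had 510.0, 525 and 554 normalized counts in KO PAMP against 338, 417 and 381 in WT PAMP cells. In mock cells it had 11.6, 12.1 and 15.3 in KO against 27.8, 21.2 and 21.6 in WT libraries. KO libraries were thus the highest with PAMP RNA and the lowest without it. The KO response was 5.26 and the WT response 3.96 log2 units, a difference of 1.30 (SE 0.20, adjusted p = 8.4e-05). edgeR did not call this gene (adjusted p = 0.464). Cxcl2 (chromosome 5, 90903871 to 90905938), which encodes a neutrophil attractant, had 724, 718 and 789 normalized counts in KO PAMP against 734, 749.6 and 712 in WT PAMP cells. In mock cells it had 95.9, 111 and 92.4 in KO against 283, 172 and 177 in WT libraries. PAMP levels of Cxcl2 overlapped and mock levels did not. Its difference of 1.06 (SE 0.16, adjusted p = 8.37e-05) therefore lay in the mock cells, where KO minus WT was -1.04, against 0.02 in PAMP cells. Without WT mock replicate 1, the highest of its group, the difference in response of Cxcl2 was 0.83.

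Tnf (chromosome 17, 35199381 to 35202007), the gene of tumour necrosis factor, had 2226, 2142 and 2245 normalized counts in KO PAMP against 1542, 1588 and 1499.6 in WT PAMP cells. In mock cells it had 404, 424 and 389.6 in KO against 585, 449 and 472 in WT libraries. Neither pair of groups overlapped. The difference in response was 0.81 (SE 0.11, adjusted p = 9.2e-06), with 0.51 in PAMP and -0.30 in mock cells. The mock component of Tnf missed the threshold without WT mock replicate 1 (-0.18, adjusted p = 0.126). Of 22 inflammatory cytokine genes tested, 1 (Tnf) had a larger response in KO cells, with a median difference of 0.20, against 0.118% of all genes. In mock cells 9 of the 22 were lower and 1 higher in KO cells (median -0.32), against 7.28% and 4.34% of all genes. In PAMP cells 3 were lower and 3 higher (median -0.05), against 5.30% and 3.85% of all genes. Il6, a pyrogenic cytokine, had 120.3, 111 and 119 normalized counts in KO PAMP against 54.7, 65.7 and 53.6 in WT PAMP cells, while its mock groups averaged 4.64 ± 2.96 in KO and 5.88 ± 1.24 in WT libraries (SD, n = 3 each). KO and WT PAMP libraries of Il6 did not overlap and differed by 1.00 (adjusted p = 0.0204), but the difference in response of 1.40 (SE 0.42) did not pass (adjusted p = 0.452), except without KO mock replicate 3 (1.80, adjusted p = 0.0438). Il12b, a subunit of IL-12, had a difference of 0.93 that passed in 1 of 23 other settings, without KO mock replicate 3 (1.14), with -0.97 in mock cells (adjusted p = 0.000132) and -0.04 in PAMP cells. Il1b had -0.04 and did not pass, and Il10, with means under 1 normalized count in all groups, was not tested.

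Of 21 chemokine genes tested, 2 (Cxcl10 and Cxcl2) had a larger response in KO cells, with a median of 0.04, against 0.118% of all genes. In mock cells 13 of the 21 were lower in KO cells (median -0.50) and 0 were higher, against 7.28% and 4.34% of all genes. In PAMP cells 9 were lower and 1 was higher (median -0.05), against 5.30% and 3.85% of all genes. Ccl4, which encodes an attractant of monocytes and T cells, was at 826 ± 28.4 normalized counts in KO PAMP and 683 ± 17.2 in WT PAMP cells, and at 97.4 ± 7.46 in KO mock and 122 ± 11.6 in WT mock cells (SD, n = 3 each). Its difference of 0.59 did not pass (adjusted p = 0.0882), though it did in 5 of 23 other settings, DESeq2 and the fit on the 12 libraries of 1 h among them (lowest adjusted p = 0.0127). Ccl3 (0.36) did not pass, nor did Cxcl1 (0.70, with all its groups under 50 normalized counts).

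Immediate-early genes, which are transcribed within minutes of a stimulus without new protein, held 3 of the 14. Egr1 (chromosome 18, 34859823 to 34864984), a zinc-finger transcription factor gene, had 1358, 1278 and 1448 normalized counts in KO PAMP against 1004, 1117 and 1079 in WT PAMP cells. In mock cells it had 184, 166 and 196 in KO against 262, 266 and 329 in WT libraries. As with Cxcl10, KO libraries were outside the WT range on both sides. The difference was 0.99 (SE 0.13, adjusted p = 7.16e-06), with 0.35 in PAMP and -0.64 in mock cells. The PAMP component was lost without WT PAMP replicate 1 or KO PAMP replicate 3 (highest adjusted p = 0.0662). Ppp1r15a (chromosome 7, 45522916 to 45526268) encodes GADD34, which directs the dephosphorylation of eIF2-alpha. It had 2019, 2022 and 2205 normalized counts in KO PAMP against 1570.2, 1638 and 1706 in WT PAMP cells, and 344, 337 and 350.3 in KO mock against 567, 469 and 455 in WT mock cells. Again no groups overlapped, and the difference was 0.87 (SE 0.11, adjusted p = 7.16e-06), with 0.35 in PAMP and -0.52 in mock cells.

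Zfp36 (chromosome 7, 28376784 to 28380253) encodes tristetraprolin, which promotes decay of cytokine mRNAs such as that of Tnf. It had 1962, 1884 and 2020.5 normalized counts in KO PAMP against 2288, 2125 and 2185 in WT PAMP cells, and 1092, 980.4 and 1061 in KO mock against 1554, 1479 and 1681 in WT mock cells. Zfp36 was thus lower in KO cells under both conditions, and its difference in response of 0.42 (SE 0.07, adjusted p = 0.0011) came from a wider gap in mock cells (-0.59) than in PAMP cells (-0.17, adjusted p = 0.029). The PAMP component missed the threshold without WT PAMP replicate 1 or 3 or KO PAMP replicate 1 or 2 (highest adjusted p = 0.176 over all settings tried). Among 35 immediate-early genes tested 3 had a larger response in KO cells, against 0.118% of all genes, and the median difference was 0.14. In mock cells 20 of them were lower and 0 higher in KO cells (median -0.41), against 7.28% and 4.34% of all genes. In PAMP cells 11 were lower and 2 higher (median -0.11), against 5.30% and 3.85% of all genes. Fos had a difference of 0.54 that did not pass (adjusted p = 0.162) except in DESeq2 (adjusted p = 0.0468), with 380.5 ± 16.2 normalized counts in KO PAMP and 429 ± 38.5 in WT PAMP cells. Its mock levels were 121 ± 8.97 in KO and 199.6 ± 17.3 in WT cells (SD, n = 3 each). Dusp1, a phosphatase gene that limits MAP kinases, had a difference in response of 0.04 (SE 0.12) and lower levels in KO cells under both conditions. It was at 687 ± 17.2 in KO PAMP and 1095 ± 52.2 in WT PAMP cells, and at 379 ± 42.7 in KO mock and 618 ± 41.9 in WT mock cells. Its gain in normalized counts was 308 in KO and 477 in WT cells.

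Regulators of NF-kB that are themselves NF-kB targets were the next group. Nfkbia (chromosome 12, 55489410 to 55492647) encodes I-kappa-B-alpha, which holds NF-kB in the cytoplasm. It had 2111, 1980.1 and 1946 normalized counts in KO PAMP against 1962, 1783 and 1766 in WT PAMP cells, and 1137, 1091 and 1075 in KO mock against 1523, 1499 and 1316 in WT mock cells. PAMP libraries overlapped and mock libraries did not. The difference was 0.52 (SE 0.08, adjusted p = 0.00026). Tnfaip3 (chromosome 10, 19000910 to 19015657) encodes the ubiquitin-editing enzyme A20, a brake on NF-kB signalling. It had 1485, 1319 and 1502 normalized counts in KO PAMP against 1306, 1324 and 1334 in WT PAMP cells, and 715, 707 and 762 in KO mock against 1074, 900.4 and 1010.2 in WT mock cells. The pattern was that of Nfkbia, with a difference of 0.56 (SE 0.09, adjusted p = 8.78e-05).

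Nfkbiz (chromosome 16, 55811375 to 55838899) encodes I-kappa-B-zeta, a nuclear cofactor for secondary NF-kB target genes. It had 447, 418 and 434 normalized counts in KO PAMP against 296, 319 and 280.0 in WT PAMP cells, and 85.1, 86.1 and 94.0 in KO mock against 136, 87.6 and 104 in WT mock cells. Here the PAMP libraries stood apart (0.54, adjusted p = 0.000144) while the mock libraries overlapped (-0.28, adjusted p = 0.0627). The difference was 0.82 (SE 0.14, adjusted p = 0.00106). Of 35 NF-kB feedback and target genes tested, these 3 had a larger response in KO cells and 0 a smaller one, with a median of 0.06. Of all genes 0.118% were called. In mock cells 16 of the 35 were lower in KO cells and 0 higher (median -0.20), against 7.28% and 4.34% of all genes. In PAMP cells 13 were lower and 2 higher (median -0.15), against 5.30% and 3.85% of all genes. Ccrl2, a chemokine-binding receptor gene, came next, at 525 ± 17.6 in KO PAMP and 459.6 ± 24.7 in WT PAMP cells, with a difference of 0.44 that did not pass (adjusted p = 0.0647). It passed in 6 of 23 other settings, among them quantile normalization, equal totals and DESeq2 (lowest adjusted p = 0.0278).

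Interferon-stimulated genes supplied 4 of the 14, Cxcl10 among them, of 66 tested, against 0.118% of all genes. edgeR called 0 of the 66 and DESeq2 called 2, Cxcl10 and Gbp5. In limma 11 had a larger and 1 a smaller response in KO cells at an unadjusted p under 0.05. In mock cells 11 of the 66 were lower and 6 higher in KO cells (median -0.04), against 7.28% and 4.34% of all genes. In PAMP cells 9 were lower and 10 higher (median 0.07), against 5.30% and 3.85% of all genes. Rsad2 (chromosome 12, 26442746 to 26456452) encodes viperin, an antiviral enzyme. It had 347, 368 and 385 normalized counts in KO PAMP against 232, 283 and 264 in WT PAMP cells, and 48.8, 49.9 and 49.0 in KO mock against 72.6, 53.9 and 83.6 in WT mock cells. KO libraries lay outside the WT range in both conditions, closest in mock cells at 49.9 against 53.9. The difference was 0.98 (SE 0.19, adjusted p = 0.00765). It missed the threshold without WT mock replicate 3 (0.84) or WT PAMP replicate 1 (0.90), with no filter on low values, and in edgeR and DESeq2. Ifit2 (chromosome 19, 34550694 to 34576419), whose protein binds viral RNA, had 436, 407 and 407 normalized counts in KO PAMP against 274, 289 and 253 in WT PAMP cells. Its mock levels overlapped, at 61.2, 57.7 and 73.1 in KO against 86.9, 76.1 and 68.6 in WT libraries. The difference of 0.88 (SE 0.18, adjusted p = 0.011) was mostly in PAMP cells (0.62, adjusted p = 0.000545). Ifit2 was lost in edgeR, in DESeq2, with no filter and in 5 of 12 fits that left out a library, with values of 0.80 to 0.98 over all settings tried.

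Gbp5 (chromosome 3, 142493978 to 142522344), a guanylate-binding protein gene, had 269, 240.3 and 254 normalized counts in KO PAMP against 207, 244 and 226 in WT PAMP cells, and 115, 128 and 114 in KO mock against 170.3, 153 and 136 in WT mock cells. The PAMP groups overlapped and the mock groups did not. Its difference of 0.53 (SE 0.12, adjusted p = 0.0277) was the least stable of the 14, lost in 8 of 12 fits that left out a library, in edgeR, with equal totals, with no filter and in the fit on the 12 libraries of 1 h. Over the 66 genes the median difference was 0.01. Ifit1, a relative of Ifit2, had 805, 747 and 781 normalized counts in KO PAMP against 413, 442 and 405 in WT PAMP cells, while its mock groups averaged 30.9 ± 2.68 in KO and 32.4 ± 6.10 in WT cells (SD, n = 3 each). The Ifit1 PAMP groups differed by 0.89 (adjusted p = 6.69e-05), and the difference in response of 0.94 did not pass (adjusted p = 0.094), except without WT mock replicate 3 and in the fit on the 12 libraries of 1 h (lowest adjusted p = 0.00427). Isg15, a ubiquitin-like modifier gene, had 0.76 (adjusted p = 0.649) and Oasl1 had 0.66 (adjusted p = 0.785). Ifit3 had 0.03, with higher KO levels in both PAMP (0.68, adjusted p = 0.00192) and mock cells (0.65, adjusted p = 0.00249).

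The last pair of the 14 fell outside these groups. Irg1 (chromosome 14, 103046977 to 103056573), the gene of the enzyme that makes itaconate, had 1009.6, 979 and 1069 normalized counts in KO PAMP against 917, 941 and 930.2 in WT PAMP cells, and 548, 569 and 533 in KO mock against 790.4, 724 and 715 in WT mock cells. No groups overlapped, and the difference was 0.56 (SE 0.09, adjusted p = 0.00026). Sdc4 (chromosome 2, 164424247 to 164443887), which encodes the heparan sulfate proteoglycan syndecan-4, had 207, 199 and 198 normalized counts in KO PAMP against 172, 185 and 170.2 in WT PAMP cells, and 59.5, 51.6 and 72.3 in KO mock against 87.8, 86.7 and 93.0 in WT mock cells. Groups did not overlap here either, and the difference was 0.75 (SE 0.15, adjusted p = 0.00685). For Sdc4 the call was lost without KO mock replicate 2 (0.63), in edgeR and DESeq2, with no filter and in the fit on the 12 libraries of 1 h.

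In WT mock cells, replicate 1 was the highest of the 3 libraries for 10 of the 14 genes, against 33.2% of all genes tested. Without it 12 of the 14 remained called, with a median difference of 0.73 over the 14 in place of 0.81. Ifit2 and Gbp5 were then lost, at 0.80 and 0.45.

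**Figure D3:**
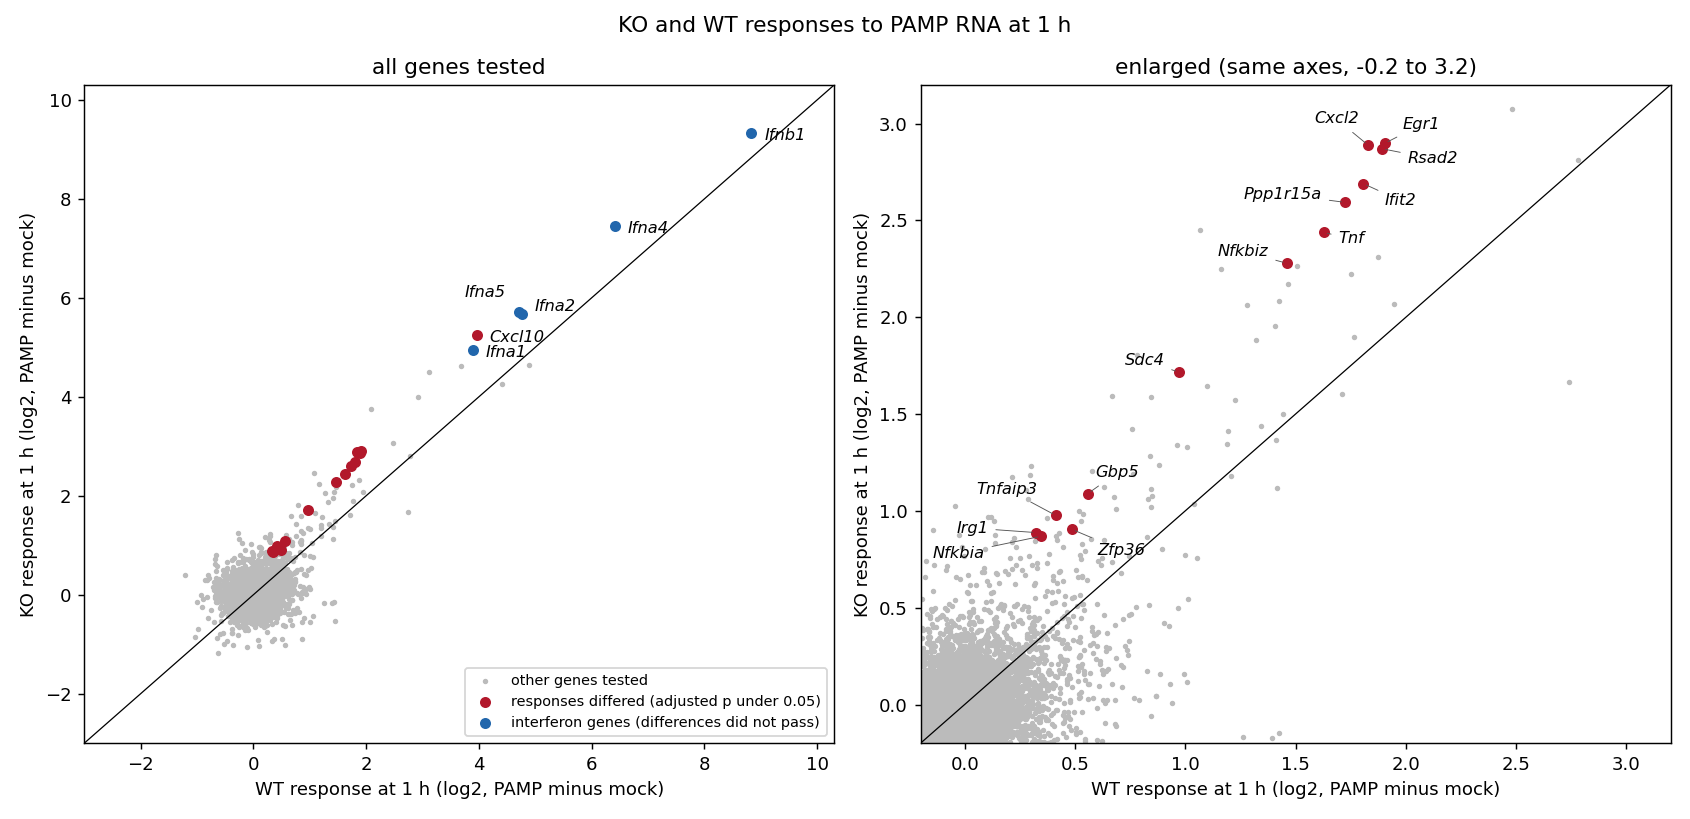
The KO response plotted against the WT response at 1 h (log2, PAMP minus mock) for all genes tested, whole at left and enlarged at right, with the diagonal marking equal responses. The 14 called genes and the interferon genes lie above the diagonal, while most of the 11853 genes cluster around 0 on both axes.

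Genes that rose with PAMP RNA were also described as a whole. Of the 153 that rose in the KO or the WT response, the 14 included, 128 (83.7%) had a larger response in KO cells, with a median difference of 0.25, against 52.0% and 0.01 over all genes tested. Of all genes, 1.19% rose and 0.169% fell in the KO response, and 0.801% rose and 0.143% fell in the WT response (1.36% and 0.945% called). In mock cells 66 of the 153 were lower and 8 higher in KO cells (median -0.27), against 7.28% and 4.34% of all genes. In PAMP cells 20 were lower and 24 higher (median 0.05), against 5.30% and 3.85% of all genes. These genes were taken by the responses that make up the difference (141 rose in KO and 95 in WT cells), which partly fixes these shares, so the values describe them and carry no test. Of the 33 genes that fell in either response, 16 had a difference above 0 (median -0.05).

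Interferon genes had almost no reads in mock cells, and 5 interferon alpha genes were higher in KO than in WT cells after PAMP RNA. Ifnb1 (chromosome 4, 88522025 to 88522774), which encodes interferon beta, had 965, 978 and 925 normalized counts in KO PAMP against 544, 616 and 553 in WT PAMP cells. The groups did not overlap, and the ratio of KO to WT was 1.68, with a 95% interval of 1.59 to 1.77 for counting error only. Mock cells held 2 reads over the 3 KO and 1 read over the 3 WT libraries. On these few mock reads, the fitted difference in response of Ifnb1 did not pass (0.50, SE 0.48, adjusted p = 1), and KO minus WT in PAMP cells did not pass either (0.74, SE 0.34, adjusted p = 0.199). Both SEs come from a spread estimated over all 12 groups, with the mock groups of few reads among them. They do not measure the spread of the PAMP libraries alone, which had SDs of 28.1 in KO and 38.9 in WT cells.

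Ifna4 (chromosome 4, 88841861 to 88842421), an early interferon alpha gene, had 165, 179 and 182 normalized counts in KO PAMP against 82.5, 95.4 and 74.9 in WT PAMP cells, and 0 in all mock libraries. Against a floor of 3 reads per mock group it was at least 211-fold higher with PAMP RNA in KO cells and at least 90.3-fold higher in WT cells. KO PAMP exceeded WT PAMP cells by 1.05 (SE 0.26, adjusted p = 0.00522), a ratio of 2.08 with a counting interval of 1.81 to 2.40. Ifna5 averaged 51.6 ± 0.343 in KO PAMP and 25.5 ± 5.14 in WT PAMP cells, and Ifna1 averaged 30.0 ± 3.01 in KO PAMP and 13.8 ± 0.669 in WT PAMP cells (SD, n = 3 each). Ifna2 had 56.3, 48.2 and 45.4 in KO PAMP against 19.6, 27.1 and 34.0 in WT PAMP cells. These 3 genes had no read in mock cells, their PAMP groups did not overlap, and they passed between PAMP groups by 0.90 to 1.06. Reads of these near-identical genes can be shared among them.

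Of 19 interferon genes listed, 11 were tested, and 0 had a difference in response that passed in limma, edgeR or DESeq2. The median was 0.93, with 5 higher and 0 lower at an unadjusted p under 0.05, and 0.118% of all genes passed in limma. The filter used the mean over all 36 libraries, so members with few reads at 1 h entered by their levels at later times. Ifna15 and Ifnab had 1 read each in KO PAMP and 0 in WT PAMP cells. The median and the counts cover such members. With a pseudocount of 5 in place of 1, the difference of Ifna4 passed (1.02, adjusted p = 0.0111). KO minus WT in PAMP cells passed for 5 of the 11, Ifna1, Ifna2, Ifna4, Ifna5 and Ifna6, all higher in KO cells. Of all genes 3.85% were higher and 5.30% lower in that comparison. Ifna6 rested on 16 reads in KO PAMP and 4 in WT PAMP cells. Summed over the 19 genes, the mean level was 1278 normalized counts in KO PAMP and 727 in WT PAMP cells.

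**Figure D4:**
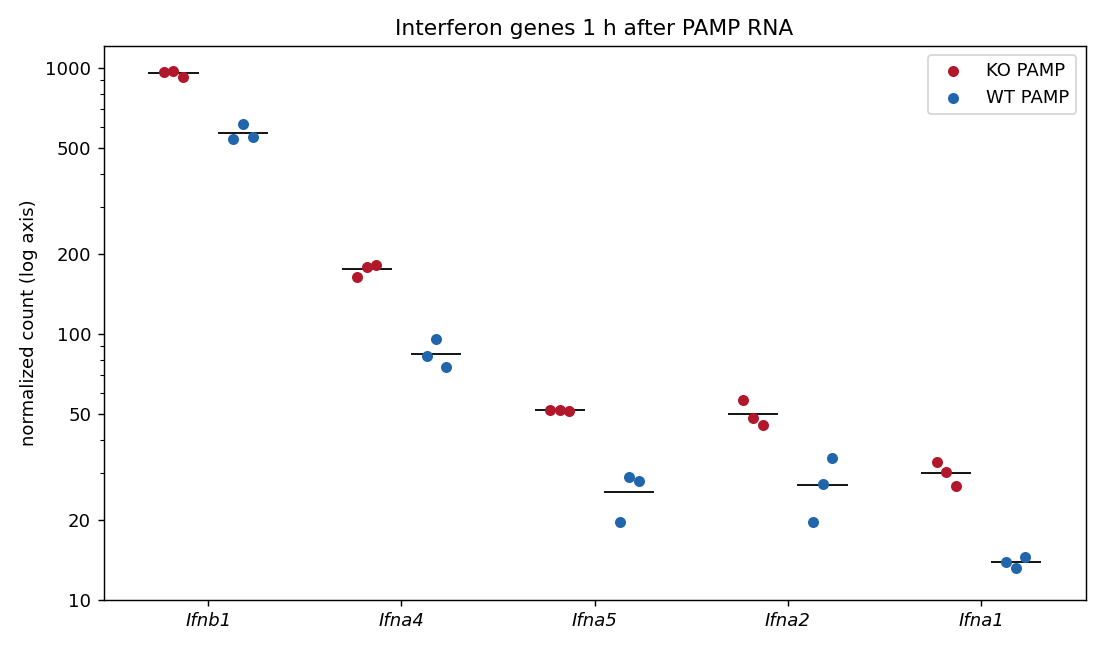
Normalized counts (log axis) of the 5 most abundant interferon genes in KO PAMP and WT PAMP libraries at 1 h, one point per library, with group means as lines. For each gene the 3 KO libraries lie above the 3 WT libraries, as for Ifnb1 at 925 to 978 against 544 to 616.

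No call of the difference in response fell in the lists of sensing and signalling genes. Over all genes 0.118% were called in limma, so lists of this size would hold few calls or none. Tested were 23 RNA sensor and adaptor genes, 32 genes of TBK1, IRF and NF-kB signalling, and 23 genes of interferon receptors, JAKs and STATs. Of these, 0 had a difference in response that passed in limma, edgeR or DESeq2, with list medians of 0.00, 0.01 and 0.04. At an unadjusted p under 0.05 the first list had 1 gene higher and 1 lower, the second 1 and 1, and the third 1 and 0. Ddx58, which encodes RIG-I, was at 225 ± 24.6 normalized counts in KO PAMP and 195 ± 20.4 in WT PAMP cells, and at 209 ± 8.52 in KO mock and 186 ± 12.3 in WT mock cells (SD, n = 3 each). Its difference was 0.04 (SE 0.13). Ifih1, which encodes the sensor MDA5, rose in both genotypes, by 0.53 in KO and 0.41 in WT cells, with a difference of 0.12 (SE 0.12). Mavs had a difference of 0.13 (SE 0.10) and was higher in KO than in WT PAMP cells (0.29, adjusted p = 0.00612). Irf7, the interferon-inducible IRF that amplifies interferon alpha, had 0.31 (SE 0.25). Among 16 MAP kinase feedback genes, 14 MHC class II genes, 23 maturation genes and 36 cell cycle genes, 0 passed in the difference in response by the same 3 tools. At an unadjusted p under 0.05 these lists had 1, 0, 2 and 1 genes higher and 1, 0, 3 and 0 lower.

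Levels in several of those lists differed between genotypes. In mock cells 9 of 14 MHC class II genes were lower in KO cells (median -0.47) and 16 of 23 maturation and costimulation genes were lower (median -0.43), with 0 higher in both lists, against 7.28% of all genes lower. In PAMP cells 8 and 16 were lower, with medians of -0.43 and -0.47, against 5.30% of all genes. H2-Aa, an MHC class II chain gene, stood at 6022 ± 153 normalized counts in KO PAMP and 9747 ± 717 in WT PAMP cells, and at 6241 ± 246 in KO mock and 9293 ± 462 in WT mock cells. Cell cycle genes went the other way, with 15 of 36 higher in KO mock cells (median 0.19) and 12 higher in KO PAMP cells (median 0.17), and 0 lower, against 4.34% and 3.85% of all genes higher. The median over all genes was 0.01 in both comparisons.

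The same difference was measured at 3 and 6 h in other libraries. At 3 h 3.14% of all genes were called (306 higher, 66 lower) and at 6 h 10.5% (791 or 6.67% higher, 452 or 3.81% lower). These splits depend on the scaling: at 3 h they were 155 higher and 87 lower with quantile normalization and 144 and 153 with equal totals, and at 6 h they were 381 and 516 with quantile normalization and 380 and 1249 with equal totals. Equal totals moved the median difference of all genes at 6 h by -0.11. Of the 14 genes, 5 were higher again at 3 h, which is 35.7% of the 14 and 1.63% of the 306 (2.58% of all genes were higher). They were Egr1, Ppp1r15a, Irg1, Zfp36 and Gbp5, and Irg1 was lost with quantile normalization (0.18). At 6 h 8 were higher again, 57.1% of the 14 and 1.01% of the 791, namely Ppp1r15a, Tnf, Cxcl10, Tnfaip3, Irg1, Zfp36, Rsad2 and Gbp5. Under quantile normalization or equal totals the count at 6 h was 7, without Tnfaip3. The Tnfaip3 call at 6 h was lost in 12 of 22 other settings, no filter and fits that left out a library among them. The 4 genes higher at all 3 times were Ppp1r15a, Irg1, Zfp36 and Gbp5.

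The Cxcl10 difference was 1.30 at 1 h, 0.18 at 3 h and 1.17 at 6 h. At 3 h its level was 30606 ± 543 normalized counts in KO PAMP and 20514 ± 457 in WT PAMP cells, and 124 ± 28.9 in KO mock and 94.1 ± 24.9 in WT mock cells (SD, n = 3 each). Its change between 1 and 3 h did not pass (1.12, adjusted p = 0.064), although it did in each of 4 fits that left out a single mock library and with equal totals (lowest adjusted p = 0.0083). Nfkbiz was the gene of the 14 whose difference passed as larger at 1 h than at 3 h (0.96, SE 0.20, adjusted p = 0.0157). Its difference was -0.14 at 3 h. With no filter on low values this missed the threshold (adjusted p = 0.0571). Egr1 was the gene of the 14 whose difference passed as larger at 1 h than at 6 h (0.69, SE 0.18, adjusted p = 0.0289). That call was lost in 8 fits that left out a library and with no filter. Cxcl2 had a change of 0.77 between 1 and 6 h that did not pass (adjusted p = 0.0504). It passed in 11 of 34 other settings, edgeR and equal totals among them. Gbp5 had its smallest difference at 1 h, with 0.53 against 0.91 at 3 h and 0.96 at 6 h, but the changes did not pass. Over all genes 0.287% were called between 1 and 3 h, 0.0591% with the larger difference at 1 h and 0.228% with the smaller. Between 1 and 6 h 2.58% were called, 0.979% with the larger difference at 1 h and 1.60% with the smaller, a split that turned round under quantile normalization (93 larger, 70 smaller) and equal totals (337 larger, 107 smaller). Between 1 and 3 h the split of 7 larger and 27 smaller became 10 and 14 with quantile normalization and 13 and 14 with equal totals.

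**Figure D5:**
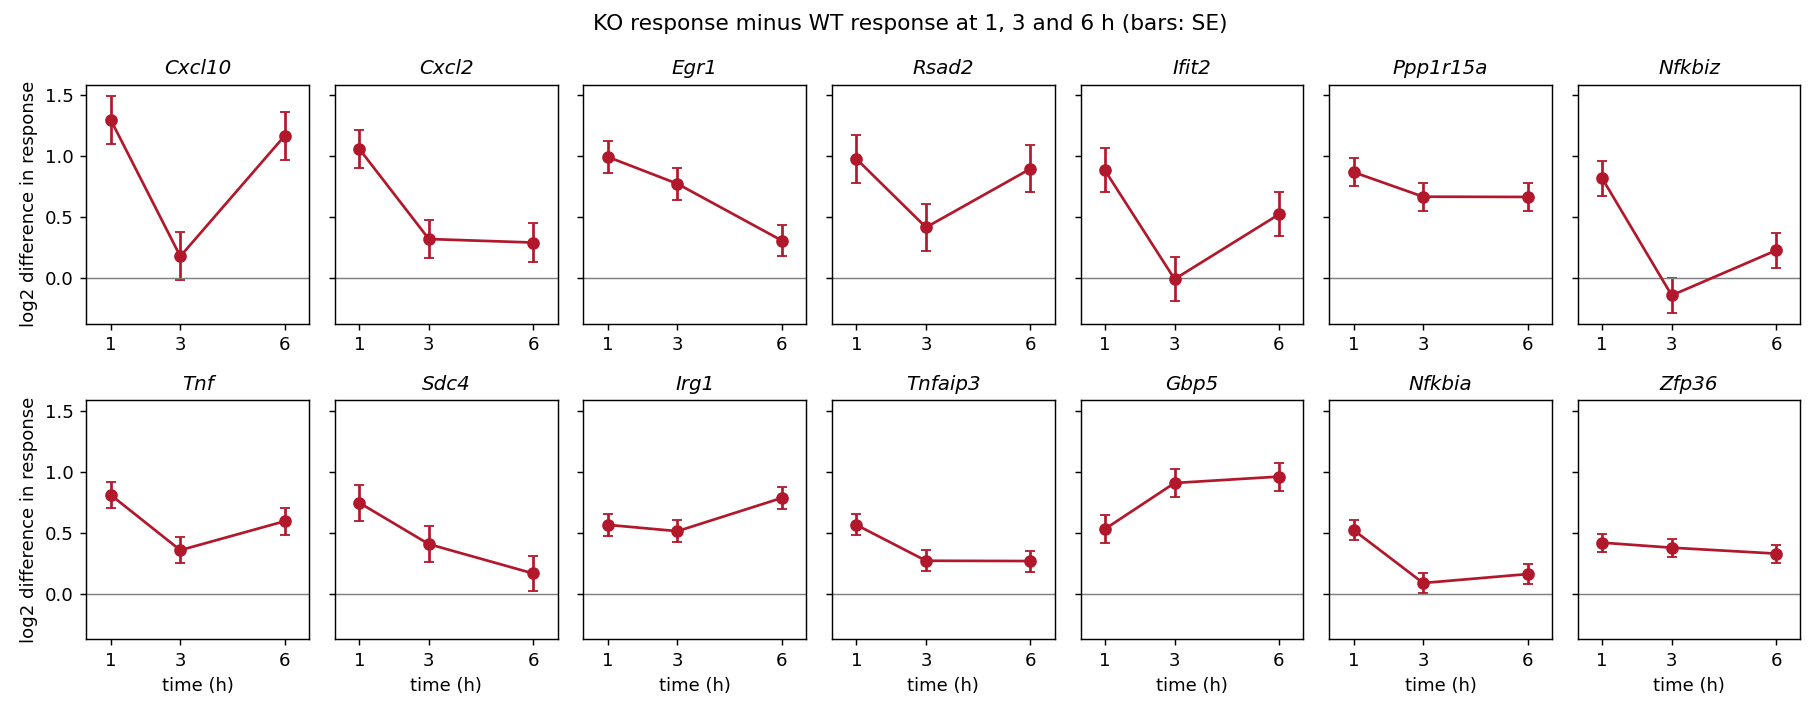
KO response minus WT response (log2, with SE bars) of the 14 genes at 1, 3 and 6 h. Egr1 runs 0.99, 0.77 and 0.31 and Cxcl10 runs 1.30, 0.18 and 1.17, while Zfp36 stays between 0.33 and 0.42.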

How the data were processed

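RNA was sequenced from 36 libraries, 3 in each of 12 groups, as single reads on an Illumina HiSeq instrument from SMARTer cDNA and Nextera XT libraries that do not mark the strand, per the labels' protocols. The submitters' processing notes name TopHat, Cufflinks, DESeq2, GRCm38 and mm10, with no versions. The deposited table holds a normalized signal per gene, which the authors made by dividing read counts by a size factor for each library, as the values themselves show: 100.0% were whole reads times a constant (tolerance 0.01 read). All columns were mapped to samples, and 4887 of 24127 genes had no read.

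limma 3.58.1 (R 4.3.3) was fitted to log2(normalized count + 1). The 11853 genes that entered averaged at least 10 normalized counts over all 36 libraries. The 12 groups shared the estimate of spread, with a mean-variance trend and Benjamini-Hochberg adjustment over all genes tested. Every adjusted p comes from limma unless another tool is named, and a gene passed at an adjusted p under 0.05. Differences in response are on the log2(value + 1) scale, which understates changes of low genes. Alternatives were quantile normalization, equal totals, TMM factors, pseudocounts of 0.5 and 5, no filter, a filter over the libraries of 1 h, a fit on those 12 libraries, edgeR 4.0.16 and DESeq2 1.42.0 on recovered reads, a replicate block, and leaving out each library. Intervals of ratios are Clopper-Pearson at 95% and, like the floor of 3 reads, cover counting error only.

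The genes named are Dhx58, up to 20 genes in each direction that passed at 1 h with a mean of at least 50 normalized counts at 1 h, up to 5 members of each list (those that passed first, then by size of difference), and a panel of response genes. Cell type markers are named beside them, and Gm5640 was named after its values were seen. Members, gene lists and motifs were chosen with earlier results of these data known. Gene coordinates are those of the GENCODE vM21 annotation of GRCm38, matched by symbol, and promoters are from RefSeq.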

Additional observations from a re-analysis of the deposited data

Results flagged for a closer look

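The responses of KO and WT cells differed at 1 h for 14 genes by the test of that difference, and all 14 were larger in KO cells. Among cytokine and chemokine genes the differences were 1.30 for Cxcl10, 1.06 for Cxcl2 and 0.81 for Tnf (log2, KO response minus WT response). Among immediate-early genes they were 0.99 for Egr1, 0.87 for Ppp1r15a and 0.42 for Zfp36. The NF-kB regulator genes had 0.82 for Nfkbiz, 0.56 for Tnfaip3 and 0.52 for Nfkbia. The interferon-stimulated genes had 0.98 for Rsad2, 0.88 for Ifit2 and 0.53 for Gbp5. Sdc4 had 0.75 and Irg1 had 0.56. A change of the difference with time passed for a pair of these genes. For Nfkbiz the difference was larger at 1 h than at 3 h by 0.96, a call lost with no filter on low values. For Egr1 it was larger at 1 h than at 6 h by 0.69. The Egr1 call was lost with no filter and in 8 fits that left out a library. Cxcl2 had a change of 0.77 between 1 and 6 h that did not pass, though it did in 11 of 34 other settings. The cause of these differences was not tested.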

How the results depend on the processing

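All 14 genes kept a larger response in KO cells in all 23 settings that changed 1 choice at 1 h, and 9 of them (Egr1, Ppp1r15a, Tnf, Cxcl2, Tnfaip3, Nfkbia, Irg1, Nfkbiz and Zfp36) passed in each. The count at 1 h was 9 with edgeR, 10 higher and 1 lower with no filter, and 14 to 17 in the other alternatives. A replicate block gave 17 genes, the 14 among them. Same-numbered libraries at 1 h correlated by -0.08 to 0.18 over 18 pairs, and 7 of 12 libraries lay closest to their own number. The sources used here do not say whether the numbers pair the libraries, and these values cannot decide it. Quantile normalization called 242 genes at 3 h and 163 between 1 and 6 h. With no filter 12 were called between 1 and 3 h and 196 between 1 and 6 h, and DESeq2 called 55 between 1 and 3 h. The cause was not tested.

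Leaving out a library gave 12 to 19 genes at 1 h, 237 to 417 at 3 h and 920 to 1210 at 6 h. It gave 23 to 60 between 1 and 3 h (60 without WT mock replicate 3 of 1 h) and 222 to 473 between 1 and 6 h (473 without WT mock replicate 1 of 1 h). The count at 3 h was 237 without WT mock replicate 2 and 240 without WT PAMP replicate 1 of that time. Genes that did not pass and changed sign when a library was left out were Cyr61 (-0.0045 to 1.20), Ddx58 (-0.045 to 0.11), Dhx58 (-0.11 to 0.37), Dusp1 (-0.046 to 0.12), Dusp14 (-0.64 to 0.022), Ifit3 (-0.27 to 0.24) and Il1b (-0.20 to 0.094). Interferon genes had few mock reads, 6 in KO and 4 in WT cells over all 19 genes. The part of this in their difference was not tested.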
